A study of Drosophila melanogaster with 2 samples.

Results

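The core circadian clock genes per, tim, Clk, cyc, vri, Pdp1, cwo and cry were examined as sites of binding of GFP-tagged OdsH, a homeodomain protein, in whole Drosophila melanogaster larvae. The 8 genes were taken by name from the Ensembl BDGP6 annotation, out of 13968 protein-coding genes on the chromosome arms and Y. The set was chosen with earlier results of these data known. Every peak summit inside each gene or within 5 kb of it was listed, a rule that does not itself use peak values. The study consisted of chromatin immunoprecipitation and sequencing with an antibody against GFP, in 2 biological replicates of 1 group. The larvae had reached the wandering part of the third instar and came from a transgenic line that stably expressed OdsH with GFP at its C terminus. Both replicates carried the same transgene, and no untagged or other group was analysed here. The sex of the animals was not collected, their age was given as unknown, and the hour of the day at which they were taken was not given in the sources used here. Whole animals were used, so more cells with the protein at a site and more protein at that site in each cell could not be told apart. The deposited values were peak lists, and the read depth behind them is unknown.

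The fly clock turns on interlocked loops of transcription. The bHLH-PAS proteins CLOCK, encoded by Clk, and CYCLE, encoded by cyc, bind E-box sequences together and activate per and tim, whose protein products enter the nucleus and inhibit that activation. In the second loop the same pair activates vri and Pdp1, which encode bZIP proteins that act on Clk in opposite directions, VRI as a repressor and PDP1 as an activator. The product of cwo is a bHLH-Orange repressor that binds E-boxes, and cry encodes the blue-light receptor through which light leads to loss of TIM.

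Most of the peaks at clock genes lay at vri and Pdp1, the bZIP genes of the second loop. In the thresholded list, which holds the 7223 strongest peaks of the pooled replicates, 25 summits lay in or within 5 kb of the clock genes, with 10 at vri, 9 at Pdp1 (19 of the 25 together), 3 at cwo, 2 at cyc and 1 at cry. There was no thresholded summit at per, tim or Clk. Thus 5 of the 8 genes carried at least 1 summit, beside 56.1% of all protein-coding genes by the same rule. The same 5 genes had a summit no further than 1 kb from one of their own starts, beside 28% of all coding genes. The clock genes had a median length of 12433 bp against 2164 bp over all coding genes, and the share of genes with a summit grew with length: 51.6% of genes under 5 kb, 68.9% of those from 5 to 20 kb and 71.5% of those over 20 kb carried one.

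The sequences under some of the summits are shown, with at least 1 for each clock gene that had one. The strongest summits within 5 kb of cyc and of cwo are not among them. Each is 61 bases of the Release 6 genome (dm6), centred on a pooled summit and written 5′ to 3′ on the plus strand, with capitals marking TAAT or its reverse complement ATTA, the core that many homeodomain proteins bind. The first 3 are from vri and include its strongest peaks. They are followed by the strongest summit of Pdp1, the cry promoter summit, the summit at the cyc start site and an intron summit of cwo.
vri chr2L:5293388-5293448 (intron): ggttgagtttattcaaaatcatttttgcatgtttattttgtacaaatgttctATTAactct
vri chr2L:5292702-5292762 (intron): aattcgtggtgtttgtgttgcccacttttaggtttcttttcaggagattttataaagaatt
vri chr2L:5299406-5299466 (promoter): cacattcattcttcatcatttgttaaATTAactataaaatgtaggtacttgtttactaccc
Pdp1 chr3L:7855984-7856044 (promoter): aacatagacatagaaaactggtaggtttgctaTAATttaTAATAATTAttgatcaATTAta
cry chr3R:19211864-19211924 (promoter): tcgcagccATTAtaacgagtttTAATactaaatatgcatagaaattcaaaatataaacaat
cyc chr3L:19815645-19815705 (promoter): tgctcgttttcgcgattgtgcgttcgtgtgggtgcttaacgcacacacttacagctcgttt
cwo chr3R:10391070-10391130 (intron): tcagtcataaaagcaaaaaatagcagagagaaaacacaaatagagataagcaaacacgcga
The Pdp1 stretch held 5 overlapping or separate matches to the core, the cry stretch 2, the vri stretches 1, 0 and 1, and the cyc and cwo stretches none.

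The strongest clock gene site was at vri, in the long intron that follows the most upstream start site. The gene (FBgn0016076) lies on chromosome 2L from 5288944 to 5311223 on the plus strand, with 5 annotated transcripts from 3 start sites. Its strongest summit, at 5293418, lay 4474 bp downstream of the upstream start site and had a pooled signal of 1200, which ranked 98 among all pooled peaks. Signal here is the score of the authors' peak caller, on a scale the sources do not state, and it ranks and describes peaks only. The same site had a signal of 631.8 in replicate 1, rank 74, and 583.3 in replicate 2, rank 142. A neighbouring intron summit at 5292732 had a pooled signal of 859.3, rank 230, with 356.1 in replicate 1 and 525.1 in replicate 2. Both sites were thus among the strongest peaks of each replicate, and the first was the stronger in both.

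The other 8 summits at vri were spread from upstream of the gene to just past its most downstream start site. The promoter of the transcript vri-RC carried a summit 211 bp upstream of its start, with a pooled signal of 484.6 and replicate signals of 226.1 and 264.3. The most downstream start, shared by vri-RA, vri-RD and vri-RF, had a summit 261 bp upstream, with a pooled signal of 154.7 and replicate signals of 57.94 and 89.04. The most upstream start, that of vri-RE, had a summit 529 bp upstream with a pooled signal of 288.6 and replicate signals of 136.4 and 151.7. All 3 vri start sites therefore had a summit within 1 kb. The last of these summits also lay 252 bp from the start of the noncoding gene lncRNA:CR44743, and a further summit upstream (pooled 414, replicates 193.1 and 230.2) lay 141 bp upstream of lncRNA:CR44742. A summit inside vri with a pooled signal of 214.6, and 106.3 and 115.6 in the replicates, lay 417 bp from the start of lncRNA:CR45730. Of the 5 promoter summits at vri, 2 were thus nearest to a vri start and the others nearest to the start of a noncoding gene. The remaining intron summits had pooled signals of 158, 146 and 205.4. Replicate signals were 82.45 and 89.93 at the first of these, 89.8 and 64.81 at the second, and 107.8 and 102.4 at the third. Over the 10 summits the median pooled signal was 251.6, beside 188 over all thresholded peaks, and neighbouring summits were a median of 1755 bp apart.

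Pdp1 had nearly as many summits as vri, but its strongest was weaker than the 4 strongest of vri. With summits within 300 bp of each other joined, Pdp1 had 7 and vri 10. Inside the gene itself Pdp1 had 5 summits and vri 8. The gene (FBgn0016694) spans 55912 bp of chromosome 3L, from 7811458 to 7867369 on the minus strand, with 13 annotated transcripts from 4 start sites. The strongest summit, 466 bp upstream of the start that 7 transcripts share, had a pooled signal of 368.9, rank 1332, with 152.8 in replicate 1 and 216.6 in replicate 2. The most upstream start, at 7867369, had a summit 91 bp upstream with a pooled signal of 135.8 and replicate signals of 85.74 and 62.95. Neither of the other start sites, at 7833073 and 7828018, had a summit within 1 kb. The thresholded summits thus lay toward the upstream end of the gene: between the summit at 7851079 and the next at 7809721, beyond the 3′ end, there were 41358 bp without one. Relaxed pooled peaks, those below the threshold, did lie in that stretch. Of the Pdp1 summits, 4 intronic ones inside the gene had pooled signals of 247.1, 206.3, 285.4 and 133.8. The nearest replicate 1 peaks had signals of 125.6, 103.8, 130 and 51.31, and the nearest replicate 2 peaks 128.1, 83.77, 155.5 and 88.29. The second of these sites was lower in replicate 2 by the nearest peak, but a stronger replicate 2 peak within 200 bp, of 127.4, would make it higher. The others were higher in replicate 2 by the nearest peak. At the fourth, a stronger replicate 1 peak within 200 bp, the one of 130 listed for the third, would make it lower. A further pair of summits, 199 bp apart, lay in an intron of the neighbour CG32365 with pooled signals of 279.2 and 257.4. Each replicate also had both, with 125.1 and 116 in replicate 1 and 154.6 and 133.3 in replicate 2. The summit beyond the 3′ end had a pooled signal of 175.7 and replicate signals of 69.22 and 112.8, and lay at the promoter of CG32369.

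**Figure D1:**
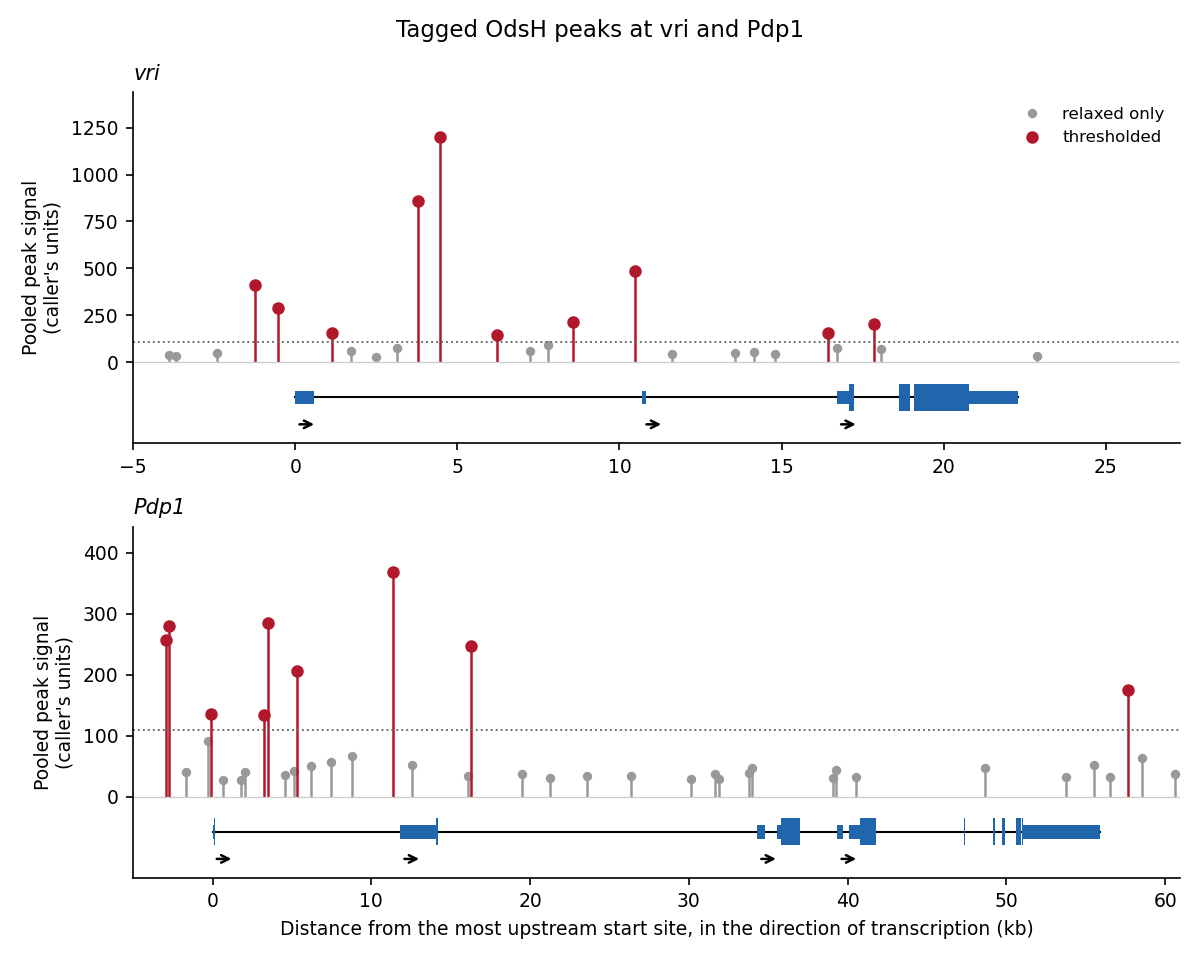
Pooled peak signal (vertical axes, caller's units) by distance from the most upstream start site in kb along vri and Pdp1, with the transcripts' exons below (tall, coding; low, untranslated) and arrows at start sites. Red points are thresholded summits, grey points relaxed-only summits and the dotted line the lowest thresholded signal, 108.6; at vri the strongest summit reached 1200, and at Pdp1 368.9, with most thresholded summits toward the upstream end.

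The number of summits at both genes was high among all coding genes, and both genes are long. At least 10 thresholded summits, as at vri, were found at 70 coding genes (0.501%), and at least 9, as at Pdp1, at 97 (0.694%). Among the 1020 coding genes over 20 kb the median was 2 summits, the highest 28, and 65 (6.37%) reached 10 and 85 (8.33%) reached 9. Per 10 kb of gene and flanks, vri had 3.1 summits, a density that 390 coding genes (2.79%) reached or passed. Pdp1 had 1.37 per 10 kb, which 3391 coding genes (24.3%) reached or passed. Scaled by length, vri remained among the more densely covered genes and Pdp1 less so.

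**Figure D2:**
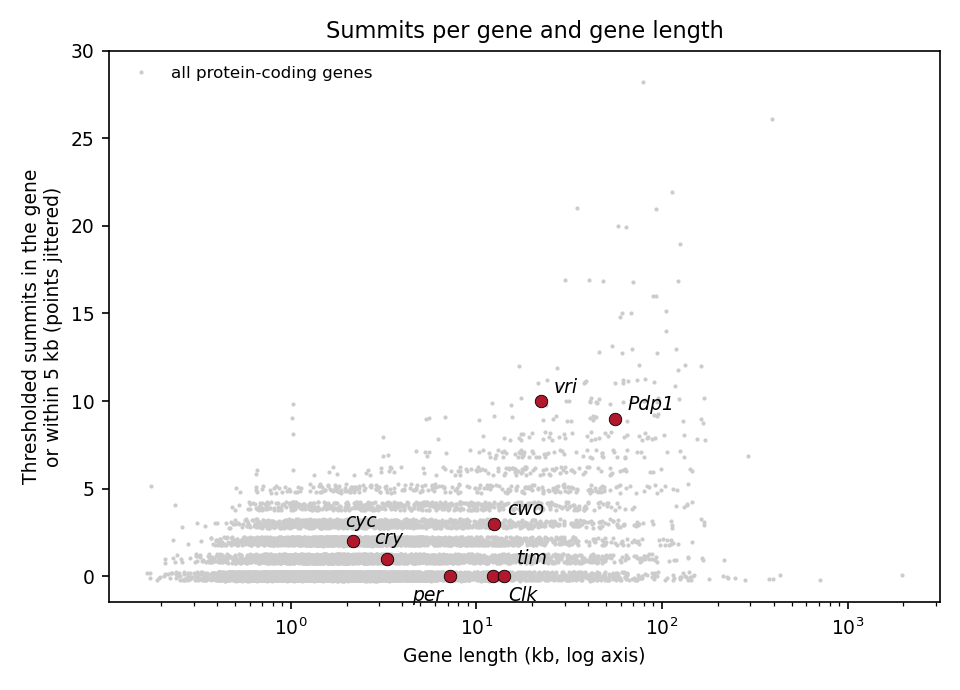
Number of thresholded summits in the gene or within 5 kb (vertical axis, points jittered) against gene length in kb (horizontal log axis) for 13968 coding genes in grey and the 8 clock genes in red. The points of vri, at 10 summits, and Pdp1, at 9, lie among long genes with many summits, and per, tim and Clk lie at 0.

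Outside the listed clock genes, those whose strongest peak was most like that of vri or Pdp1 in pooled signal were also found. Next above vri, at 1206, was a promoter peak nearest to CG7841 that 7 coding genes shared within 5 kb, with replicate signals of 558.6 and 664. Next below, at 1186, was a promoter peak nearest to bves, shared with Stt3A, with 524.8 and 670.7. Both neighbours were higher in replicate 2, whereas the vri peak was higher in replicate 1. For Pdp1 the next above was an intron peak of TTLL4B at 369.4 and the next below an intergenic peak nearest to PGRP-SA at 368.3. The likeness is a difference in signal over 2 replicates and carries nothing about shared function.

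The activator genes differed from each other. Clk (FBgn0023076, chromosome 3L, 7763233 to 7775603, minus strand) had no summit in any list, including the 30000 relaxed peaks of each replicate and of the pool. The nearest thresholded summit was 7966 bp away, in an intron of CG32369, with a pooled signal of 261.4. The annotated start nearest to that summit was still one of Clk. The gene cyc (FBgn0023094, chromosome 3L, 19813770 to 19815938, minus strand) had a thresholded summit 263 bp downstream of its only annotated start site. This summit was weak, with a pooled signal of 116.7, rank 6635 of the 7223 thresholded peaks, and replicate signals of 56.11 and 57.64. Its −log10 q was 3.65, where 23 of the 25 clock gene summits stood at the list's ceiling of 4.12. The stronger summit within 5 kb of cyc, with a pooled signal of 333.6 and replicate signals of 148.3 and 182.7, lay 15 bp upstream of the start of the neighbour Fibp. When replicate 2 alone chose the peaks, the summit at the cyc start was no longer among the strongest 7223.

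The repressor genes per and tim, direct targets of CLOCK and CYCLE, had no thresholded peak, only relaxed ones, in the lists of 1 replicate each. per (FBgn0003068, X, 2685580 to 2692780, plus strand) had 2 relaxed pooled peaks, with signals of 31.34, 35 bp downstream of the start site, and 27.19, in an intron. These ranked 26272 and 29970 of 30000. Replicate 1 had 3 peaks at per, with signals of 15.68, 16.21 and 14.9, and replicate 2 had none. These values lie at the weak end of lists whose lowest signals were 27.15 in the pool and 14.83 in replicate 1. A much stronger peak, rank 5 of all with a pooled signal of 2634, lay 11116 bp from per, at the promoter of Ugalt and outside the 5 kb limit. tim (FBgn0014396, chromosome 2L, 3493986 to 3508119, minus strand) had no peak in the pool or in replicate 1. In replicate 2 it had 2, with signals of 32.7 and 20.55, lying 66 bp past and 148 bp before the tim-RO start. They ranked 13791 and 21826 of 30000 in that replicate, whose lowest signal was 14.62, so they were not at its weak end. The nearest thresholded summit to tim was 15539 bp away, at the promoter of Thor, with a pooled signal of 191.7. With relaxed pooled peaks counted, 6 of the 8 clock genes had a summit within 5 kb, beside 82.6% of all coding genes.

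The E-box repressor gene cwo (FBgn0259938, chromosome 3R, 10388258 to 10400752, plus strand) had its 3 summits inside the gene. The strongest lay in a 5′ exon 730 bp past the start and had a pooled signal of 214.3 and replicate signals of 82.43 and 135.2. An intron summit had a nearly equal pooled signal of 211.6, with 115.9 in replicate 1 and 95.56 in replicate 2. The replicates thus ordered these sites differently, the exon site being lower in replicate 1 and higher in replicate 2. A further intron summit, with a pooled signal of 113.6 and replicate signals of 43.76 and 70.16, was the weakest thresholded summit at any clock gene, with a −log10 q of 3.66. The photoreceptor gene cry (FBgn0025680, chromosome 3R, 19212154 to 19215442, plus strand) had a single summit in every list. It lay 260 bp upstream of the start and had a pooled signal of 299.7, rank 1845, and replicate signals of 131.7 and 180.6. The start site is shared with the noncoding gene lncRNA:CR46393, and the next thresholded summit was 24265 bp away, so this promoter peak stood alone.

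**Figure D3:**
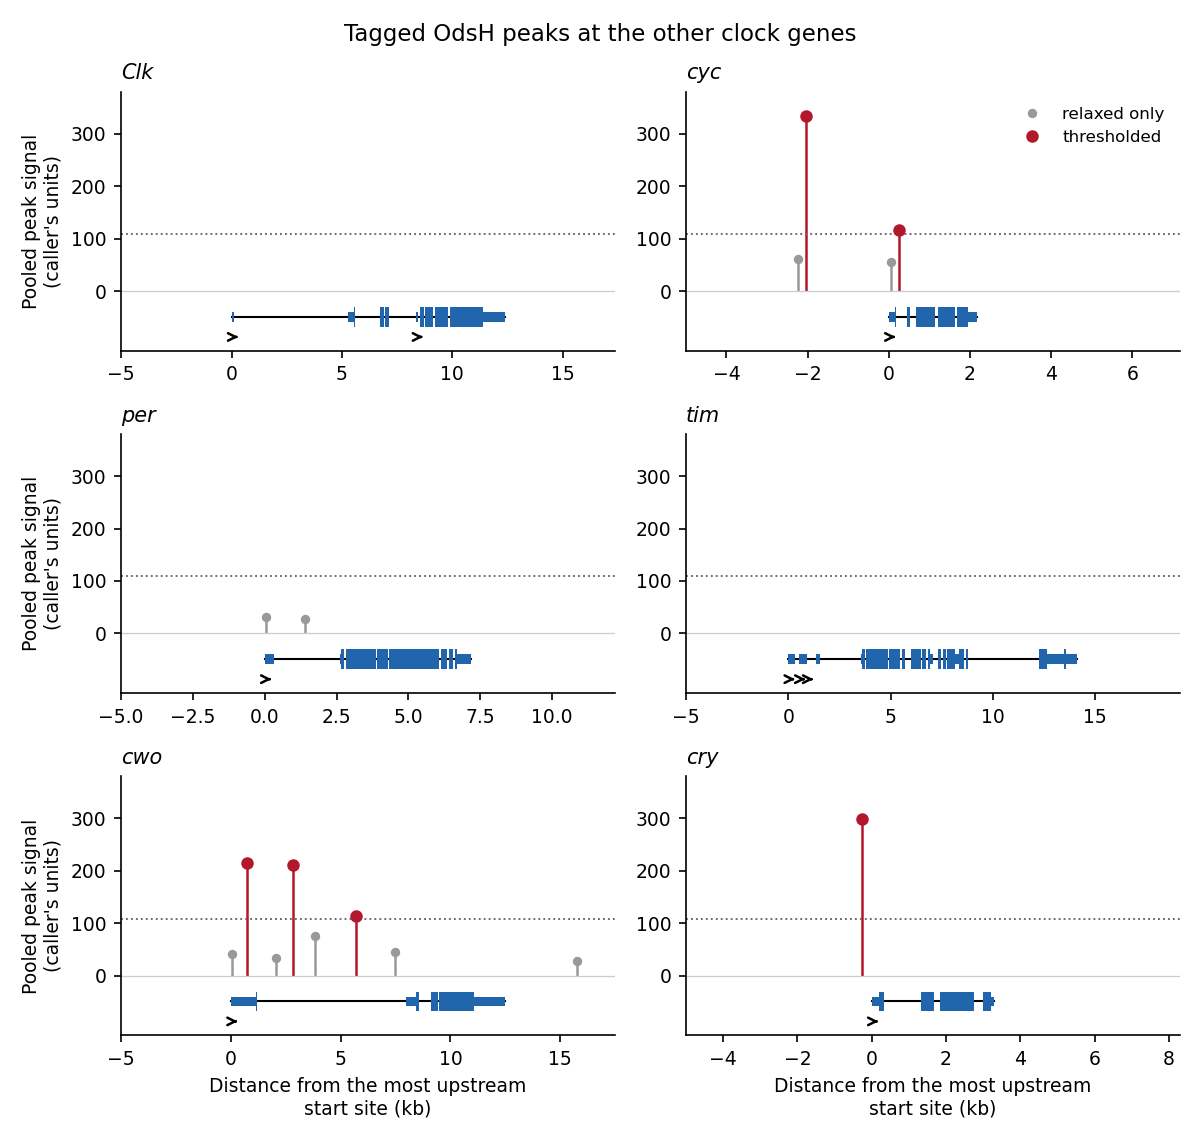
Pooled peak signal (vertical axes, caller's units, same scale in each panel) by distance from the most upstream start site in kb along Clk, cyc, per, tim, cwo and cry, with exons and start sites drawn below. Red points are thresholded and grey points relaxed-only summits; Clk and tim have no pooled peak, per has relaxed ones of 31.34 and 27.19, and cry has a single one of 299.7.

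Few clock gene peaks lay close to the threshold. The weakest thresholded summits were the cwo intron at 113.6, the cyc start at 116.7 and a Pdp1 intron at 133.8, and the lowest signal of the whole thresholded list was 108.6. The strongest peaks left outside were a Pdp1 promoter peak at 91.42, a vri intron peak at 91.05 and a cwo intron peak at 75.45.

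By position, the clock gene summits fell at promoters and in introns. A promoter was any position within 500 bp of an annotated start site, coding or not. Of the 25 summits, 11 (44%, exact 95% binomial interval 24.4 to 65.1) were at promoters, beside 43.4% of all thresholded summits. Introns held 13 (52%, interval 31.3 to 72.2), beside 38.3% of all, and this interval includes the share over all peaks. The 1 other summit was in the 5′ untranslated part of a cwo exon. Coding sequence held none, for which the exact 95% interval allows a share of up to 13.7%, where 0.194% of all thresholded summits lay in it. The nearest start site belonged to the clock gene itself for 17 of the 25 summits and for 6 of the 11 at promoters. Among the 54 relaxed-only summits at these genes, promoters held 18.5% and introns 63%, beside 30.4% and 43.5% over all relaxed-only peaks. Intervals cover counting error over peaks only, and summits of 1 gene share their locus. The clock gene summits were kept for lying in or within 5 kb of a gene, a rule not applied to all peaks. Their intron and intergenic shares are therefore not like for like with those over all peaks. The intron summits also include those at 7870104 and 7870303, in the neighbour CG32365.

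Every thresholded clock gene summit was found in both replicates, and the thresholded list was itself chosen on reproducibility between them. All 25 had a peak within 200 bp in both replicates, and the nearest peaks were 25 distinct ones in each. With the strongest peak within 200 bp taken as the partner, the median log2 ratio of replicate 2 to replicate 1 was 0.253 (SD 0.364, range -0.559 to 0.713), beside 0.260 (SD 0.449) over the 7173 thresholded peaks with a partner in both. The signal was higher in replicate 2 at 19 of the 25, and at 77.8% of all, so the shift toward replicate 2 was that of the whole list; 5 of the 25 lay further than 1 SD from the median over all. Taking the nearest peak instead, an alternative chosen after seeing the data, changed the partner of 3 summits, all at Pdp1, and gave a median of 0.225 (SD 0.364), beside 0.261 (SD 0.467) over all, with 19 of 25 again higher in replicate 2. By gene, replicates 1 and 2 had 26 and 25 relaxed peaks at vri, 35 and 33 at Pdp1, 11 and 8 at cwo, 5 and 4 at cyc, and 1 each at cry. They differed in presence at per, with 3 and 0, and at tim, with 0 and 2, and neither had a peak at Clk.

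**Figure D4:**
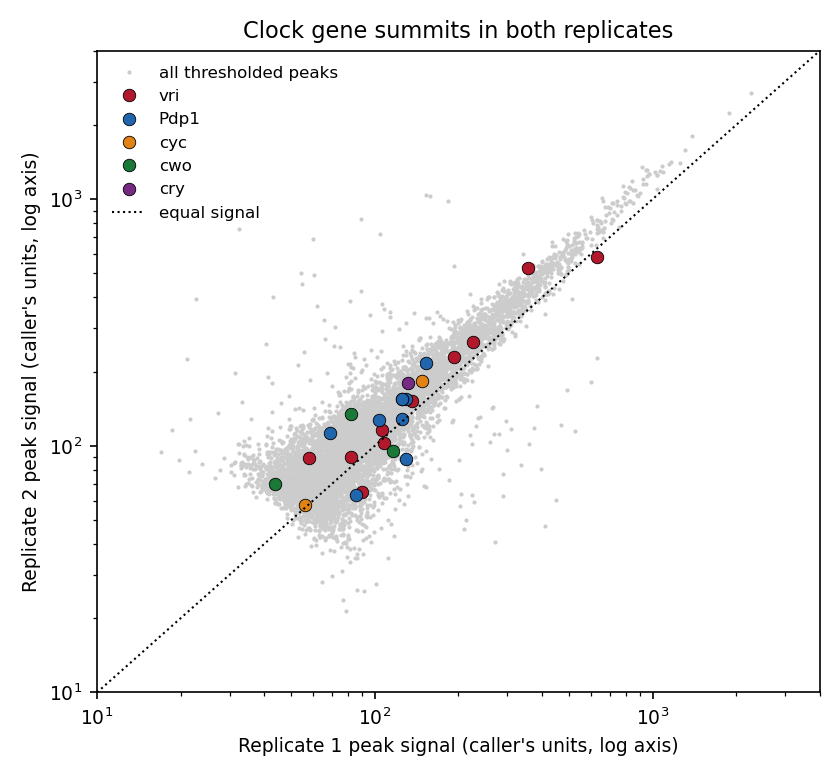
Signal of the strongest peak within 200 bp in replicate 2 (vertical log axis) against replicate 1 (horizontal log axis), in the caller's units, for all thresholded peaks in grey and the 25 clock gene summits coloured by gene, with the line of equal signal dotted. Of the clock gene summits, 19 lie above the line, and the strongest vri summit, at 631.8 and 583.3, lies below it.

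The homeodomain core was found at most clock gene summits, in about the share seen at all summits, and E-boxes were found at few. Within 50 bp of the summit, on both strands, TAAT was found at 21 of 25 clock gene summits (84%), beside 75% of all thresholded summits and 49.6% of equal windows at 19252 start sites of coding genes. The longer TAATTA, which contains TAAT, was found at 3 (12%), beside 9.72% and 2.99%. TATAAA was found at 6 (24%), beside 21.6% and 15.5%. The E-box CACGTG was found at none of the 25, beside 0.665% of all summits and 1.82% of start site windows. The looser CANNTG, which includes CACGTG, was at 5 (20%), beside 34.9% and 43.7%. None of the 25 windows held TTACGTAA or TTATGTAA, which bZIP proteins of the VRI and PDP1 kind can bind, or TATCGATA, the site of the factor DREF. These motifs were also rare at all thresholded summits, at 0.138%, 1.15% and 1.11%, so a count of 0 in 25 does not set the clock genes apart. Base composition did not set the clock gene summits apart, since the median content of A and T in these windows was 67.3% at clock gene summits and 67.3% at all. It was not measured in the start site windows. The lower share of TAAT there, a motif of A and T alone, may therefore not be a difference in the motif itself. A match is only a run of letters, and its absence here concerns this window alone.

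E-boxes around the clock genes mostly lay away from the summits. Even so, a larger share of these summits than of all thresholded summits had one within 1 kb, a difference that was not tested. Across the genes and their flanks CACGTG occurred 52 times: 15 at cwo, 14 at Pdp1, 11 at per, 4 at vri and 2 each at Clk, cyc, cry and tim. The E-box closest to a thresholded summit, upstream of the most upstream Pdp1 start, was centred 61 bp from it. A pair of these, the Pdp1 site with the closest peak and a per site without one, are printed as 25 bases of the plus strand (dm6) with the E-box in capitals. The per site is the one 527 bp upstream of the per start site.
Pdp1 chr3L:7867509-7867533: gaatgtaatCACGTGgtctttatct
per chrX:2685041-2685065: gccgccgctCACGTGgcgaactgcg
The Pdp1 E-box had a thresholded peak of 135.8 beside it, whereas the per E-box was 18843 bp from any thresholded summit. The per E-box was 562 bp from a relaxed pooled summit. The pair was chosen by these distances, and other Pdp1 E-boxes lay up to 20102 bp from a thresholded summit. Within 500 bp, 6 of 25 clock gene summits had a CACGTG, a larger share than the 12.3% of all thresholded summits. Within 1 kb the share was 8 of 25, also above the 22.9% of all. The 6 were all at Pdp1 and cwo, and summits of 1 gene share their locus. The Pdp1 summits at 7863900 and 7864099 counted the same E-box, so the 6 were not independent. No interval was computed for these shares, which rest on few summits. The closest approach at vri was 710 bp, at cwo 283 bp, at cry 1145 bp and at cyc 1312 bp.

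Beyond the core loops, 36 other genes of the clock pathway were listed, all of which matched a gene in the annotation. Of these, 29 had a thresholded summit within 5 kb and 20 had one within 1 kb of a start, beside 56.1% and 28% of all coding genes. The list was chosen with earlier results of these data known, so these counts describe the list only and are no evidence about the pathway. Their median length was 11538 bp, so the length of these genes differs from that of all coding genes as it does for the core set. The median number of summits was 2 in the list, 1.5 in the core genes and 1 over all coding genes. The 7 without a summit included the neuropeptide genes Pdf, Dh31 and Dh44, of which Pdf encodes the main transmitter of the ventral clock neurons, along with na, Rh7, tyf and disco. Other neuropeptide genes of the list, sNPF and ITP, did have one.

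Among these pathway genes the strongest peak was at Eip75B, which encodes a nuclear receptor of the ecdysone response that also acts in clock neurons. Eip75B is 113744 bp long and had 22 summits. Of the coding genes over 20 kb, 6.37% had at least 10. The strongest summit of Eip75B, in an intron, had a pooled signal of 2072, rank 22, with 950.1 and 1152 in the replicates. An intron peak of norpA, the phospholipase C of phototransduction, reached 1691, rank 42, with 768.4 and 939.2. These peaks were stronger than any at the core genes, in each replicate. The strongest peak at kay, the gene of the transcription factor Fos, lay 2638 bp upstream of it with a pooled signal of 894.9 (369.9 and 543.4). kay is 28119 bp long and had 11 summits in all. sgg, the kinase that phosphorylates TIM, had a promoter peak of 854.6 (437.3 and 412.4). The remaining strong peaks had their nearest start at another gene. The peak counted for jet, an F-box protein gene for light-dependent loss of TIM, had a signal of 926.4 at the start of betaggt-I. The peak counted for brm, a chromatin remodeller, had a signal of 886.8 and lay 122 bp upstream of the Arl1 start. It also overlapped brm, as the peak began at 15982839 and brm extends to 15982869, so the site was not that of Arl1 alone.

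The 20 pathway genes with a summit near a start had varied roles. They were the kinase genes dco, with a strongest peak of 492.3, and nmo, a gene of 75102 bp with 12 summits. The F-box gene slmb, and mts, tws and wdb for subunits of protein phosphatase 2A, were also among them. The RNA regulators Atx2, gw and lark, the deubiquitinase gene Usp8, the transcription factor genes CrebB and Kr-h1, the neuropeptide genes sNPF and ITP, and the light-input gene qsm made up the rest, with Eip75B, norpA, kay, sgg and brm. The 9 with a summit only further from their starts were the casein kinase II genes CkIIalpha and CkIIbeta, the ubiquitin ligase genes jet and Cul3, and Hr51, Pdfr, Nf1, to and qvr. As at jet and brm, the strongest peak of a listed gene could be a promoter peak nearest to another gene's start. Such genes included slmb, mts, Usp8, lark, CkIIalpha, CkIIbeta, Cul3, Pdfr and Nf1.

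**Figure D5:**
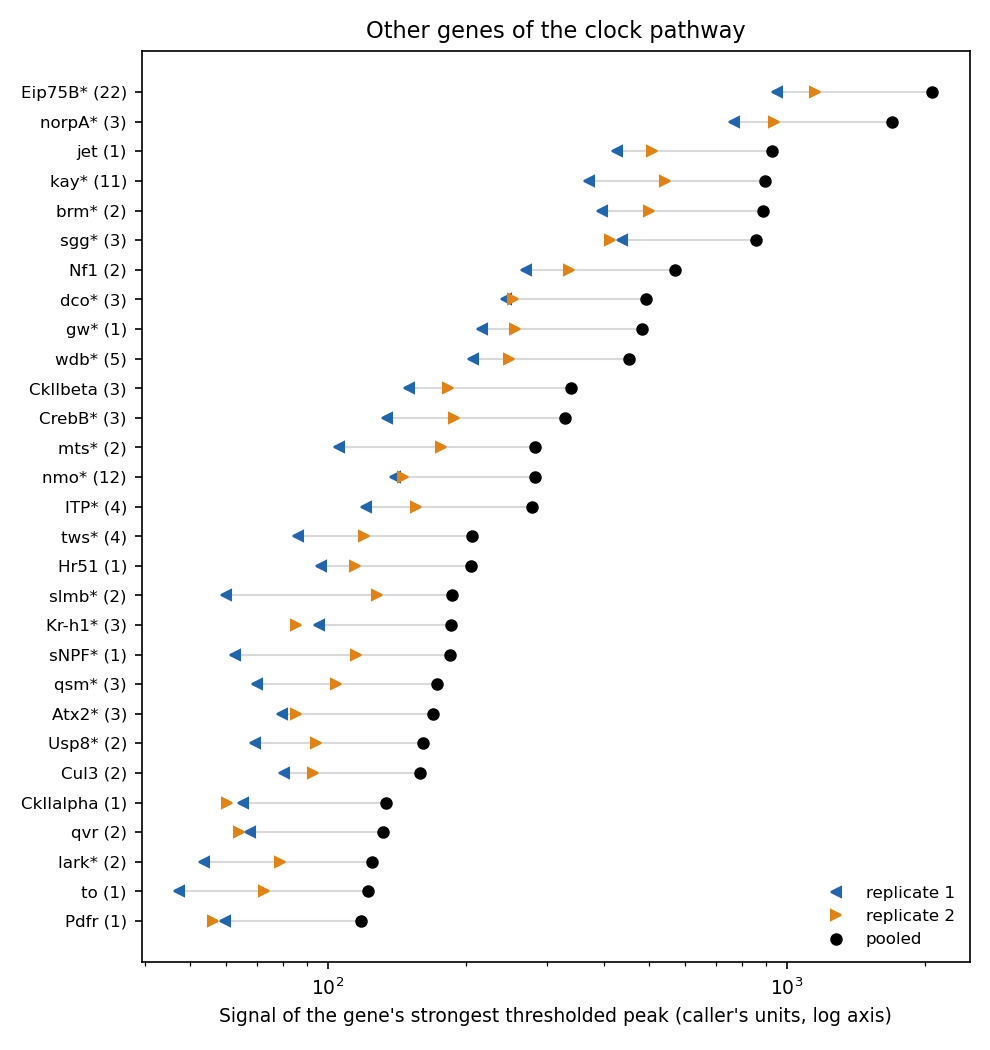
Signal of the strongest thresholded peak in the gene or within 5 kb (horizontal log axis, caller's units) for the 29 other clock pathway genes with one, in the pooled list (black) and the matched peak of replicates 1 and 2 (triangles). The peak can lie nearest to the start of another gene. The number of summits is in parentheses and an asterisk marks one no further than 1 kb from a start; the pooled values run from 118.3 at Pdfr to 2072 at Eip75B.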

How the data were processed

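Chromatin immunoprecipitation of GFP-tagged OdsH was measured in whole larvae, in 2 biological replicates of 1 group; sonicated fragments measured 200 to 800 bp, per the labels. The authors deposited narrowPeak lists for each replicate and for the pool, 30000 relaxed peaks each, and a list of 7223 peaks thresholded on the irreproducible discovery rate, which were the strongest peaks of the pooled list. The signal of each deposited peak is on a scale not given in the sources used here, as are the aligner and the peak caller. The deposited −log10 q-value reaches a ceiling of 4.12 and was not used to rank. The control library and the dm3 lists were not analysed here. Read depth is unknown.

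Summits were read in dm6, counting from 1, and set against the Release 6 sequence and Ensembl release 115, without transposable element entries. Every peak lay within its chromosome arm. Each summit got 1 position class: promoter before coding exon, then UTR, exons of noncoding genes, introns and lastly intergenic sequence. Replicate signal was that of the strongest relaxed summit within 200 bp of the pooled one, with the nearest as an alternative added after seeing the data. Summits within 300 bp of each other form a cluster, of which there were 23 at the clock genes. The shares by position have exact binomial intervals at 95%, covering counting error only.

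The clock genes, the 36 pathway genes, 1 of which was matched through an older symbol, and the motifs were chosen with earlier results of these data known. Named genes were the clock genes, those whose start was nearest to their summits, the 6 pathway genes with the strongest summit and those with one no further than 1 kb from a start, and the genes next in signal to the strongest summits of vri and Pdp1. Pathway genes with no summit near a start were named after their values were seen, as were the genes nearest to Clk, per and tim, and nmo, dco and Pdfr for their counts or signals. With 1 group there was no test, and the alternatives are other distances, the strongest peaks, all relaxed peaks and each replicate alone. Counting, placing and motif search were tested on simulated data. Python 3.11.15 was used with numpy 2.4.6, pandas 2.3.3, scipy 1.17.1 and matplotlib 3.10.9.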

Additional observations from a re-analysis of the deposited data

How the results depend on the processing

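Of 68 alternative values, 50 stayed within 1.5 times the reported count, within the interval of the reported share or within 1 SD of the reported ratio, and 18 did not. The number of clock genes with a summit was 4 for the gene body alone, 5 within 2 kb and 6 within 10 kb, where Clk was added, beside 15.8%, 41.5% and 69.7% of all coding genes. With all relaxed pooled peaks, 79 summits lay at clock genes and 47 of them had TAAT. Counting the gene body alone left 17 other pathway genes and 2209 coding genes with a summit, and the stronger 50% of the thresholded peaks left 17 other pathway genes, 11 of them by the 1 kb start site rule. A promoter of 200 bp lowered the promoter share to 16%. The strongest signal at cyc was 116.7 instead of 333.6 when only its own start site counted.

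When each replicate alone gave the 7223 strongest peaks, 5 clock genes kept a count above 0 in both cases and 4 to 5 had one no further than 1 kb from a start, the lower value without replicate 1, where cyc was lost. Summits at clock genes numbered 25 to 26, their promoter share was 38.5% to 40%, other pathway genes with a summit numbered 29 in both cases and 20 to 21 near a start site, and coding genes 7810 to 7848. No paired analysis was possible because there was 1 group and no test. Unknown depth limits what the absence of a peak at per, tim or Clk shows: sites below the weakest listed peak are not seen.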
